A study of Mus musculus with 4 samples.

Results

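The 54 genes described here are WNT ligands, receptors, inhibitors and targets, taken as the rows of the deposited gene table whose symbol was on a fixed list of names, out of 54532 genes in all. Every one of the 54 was found in the table once, and no expression filter was used to choose them. They were followed across 4 RNA-seq libraries of C3H10T1/2 cells, a mouse embryo-derived mesenchymal stem cell (MSC) line, with 1 library per group. All cells were transfected for 48 h, either with control siRNA (groups control and OB) or with siRNA against DNMT1, the maintenance DNA methyltransferase (groups siDNMT1 and siDNMT1_OB). Control and siDNMT1 cells were left untreated. OB and siDNMT1_OB cells were then induced for osteoblast (OB) differentiation for 3 days with L-ascorbic acid at 50 µM, β-glycerophosphate at 10 mM and dexamethasone at 0.001 µM. A single cell line served for all groups, and no difference between 2 groups has a replicate check.

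WNT proteins are secreted lipid-modified ligands that bind Frizzled receptors together with the co-receptors LRP5 and LRP6. In the canonical branch this binding stops the AXIN complex from marking β-catenin for destruction, and β-catenin then enters the nucleus and acts with TCF/LEF factors on target genes, several of which (AXIN2, NKD1, NOTUM, ZNRF3, LEF1) feed back on the pathway. R-spondins, acting through LGR receptors, keep the ubiquitin ligases ZNRF3 and RNF43 from removing Frizzled receptors, while SFRP, DKK, NOTUM and sclerostin proteins restrain the ligands or their receptors. In the skeleton canonical signalling through LRP5 and LRP6 favours bone formation, and WNT5A acts largely through ROR receptors outside the β-catenin branch.

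Total gene counts lay between 22296046 (OB) and 27367792 (control), so that 3 counts, used as the floor of detection, stood for 0.111 to 0.133 CPM, the count of a gene scaled to a common library total. Dnmt1, the siRNA target, held 265 (control), 132 (siDNMT1), 85.4 (OB) and 93.1 (siDNMT1_OB) CPM, so the library labelled siDNMT1_OB was not below OB, while OB was itself below control, and the reason was not tested. Every direction that rests on siDNMT1_OB, the additive fit included, carries this limit. All 8 mesenchymal markers were expressed, whereas of the 6 osteoblast markers Runx2 and Spp1 alone passed the filter and Sp7, Alpl and Bglap stayed between 0 and 8 counts in each library, with Ibsp at 1 to 17. Spp1 was lower in OB than in control (187 and 548 CPM), with a log2 fold change of −1.55, but had 0.40 in siDNMT1_OB against siDNMT1 (271 and 206 CPM), and it was lower in siDNMT1 than in control (−1.41). Runx2 had −0.06 in OB against control. The 4 epithelial markers summed to 0.354 to 1.03 CPM and the 2 endothelial markers to 0.112 to 0.332 CPM, with Epcam and Krt18 at 0 in each library. Of the blood markers Ptprc stayed between 0 and 2 counts, and Cd68 held 1.73 to 2.61 CPM. In bulk RNA, fewer cells that express a gene and less RNA per cell cannot be told apart.

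Which parts of the pathway these cells express was examined first. Of the 54 genes, 36 had a mean of at least 1 CPM over the 4 libraries, the filter used for fold changes, and 18 did not. Levels were compared between genes as CPM per kb of exon. Ctnnb1, which encodes β-catenin, had the highest mean level, from 91.7 CPM per kb in control to 166 in siDNMT1_OB. Rspo2, an R-spondin, came next with 59.7 (control), 89.8 (siDNMT1), 46.8 (OB) and 96.4 (siDNMT1_OB), followed by the R-spondin receptor Lgr4 with 74.9, 78.4, 59.8 and 50.8 CPM per kb in the same order. Frizzled and LRP receptor genes were plentiful beside the WNT ligand genes described below. The 10 Frizzled and LRP genes summed to 122 to 157 CPM per kb, and all 10 passed the filter. Fzd1 (42.0 to 50.2 CPM per kb), Fzd2 (30.3 to 40.5) and Fzd7 (16.0 to 22.8) were the most abundant Frizzled genes. Of the other receptors, Ryk, an atypical receptor tyrosine kinase, ranged from 26.9 to 35.8 CPM per kb, above Ror1 (3.64 to 7.28) and Ror2 (2.06 to 3.42) in each library.

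WNT ligand RNA was low beside that of the Frizzled and LRP genes. The 13 ligand genes summed to 8.45 (control), 9.68 (siDNMT1), 16.9 (OB) and 15.5 (siDNMT1_OB) CPM per kb. Wnt5a had the highest level of them in each library, with 4.47, 5.96, 7.55 and 8.74 CPM per kb, and Wnt5b (1.56, 2.09, 6.20 and 4.11) came next. Wnt9a (0.938 to 1.79) and Wnt10b (0.298 to 0.715) were the only other ligands to pass the filter. Among the inhibitors Sfrp1, a secreted decoy that binds WNT, ranked highest by mean level (5.87 to 17.5 CPM per kb). Kremen1 was above it in control (7.71 against 5.87) and in siDNMT1 (8.04 against 6.70). Among the TCF/LEF factors Tcf7l1 (7.67 to 15.0) ranked above Tcf7l2 (4.05 to 11.5), Tcf7 (0.584 to 1.14) and Lef1 (0.191 to 0.751).

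**Figure D1:**
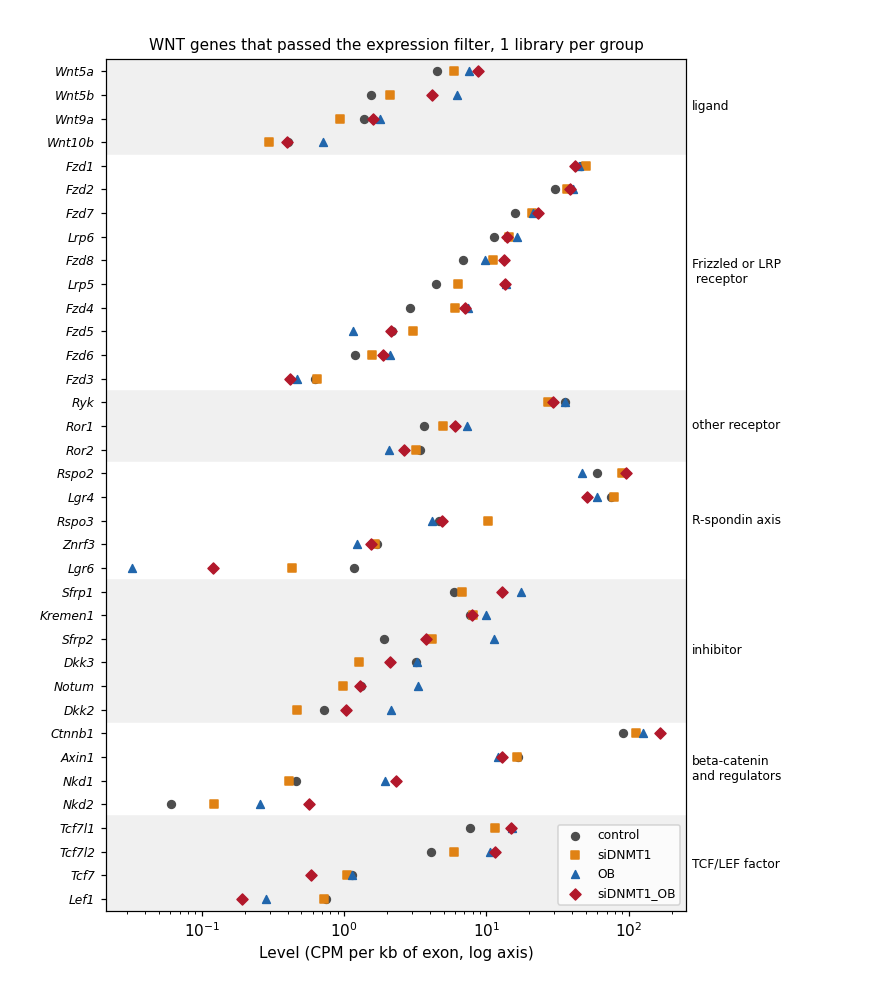
Level in CPM per kb of exon (log axis) of the 36 WNT genes that passed the filter, ordered by role and then by mean level, with 1 marker for each library and no error drawn. Ctnnb1, Rspo2 and Lgr4 lie furthest right, and Lgr6 spans the widest range, from 0.0323 in OB to 1.18 in control.

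The 18 genes under the filter were described by their counts alone. Wnt3a, Rspo1, Dkk1 and Sost had 0 counts in each of the 4 libraries, which allows a level of about the floor given above. The upper ends of their exact 95% Poisson intervals lay between 0.136 (control) and 0.163 CPM (OB). Dkk1 and Sost encode WNT inhibitors that act on LRP5 and LRP6, and Sost is best known from osteocytes. Wif1 had 1 count in control and 0 elsewhere, Wnt10a 2 in control and 0 elsewhere, Wnt7b 2 in OB and 0 elsewhere, and Rnf43 6 in siDNMT1_OB and 0 elsewhere. Wnt6, Wnt16 and Sfrp4 stayed at or under 5 counts in each library. Wnt11 had 9, 4, 5 and 1 counts in control, siDNMT1, OB and siDNMT1_OB, and Wnt2 had 16, 5, 9 and 10. Wnt2b lay between 15 and 19 counts, with no order that exceeded counting error. Lgr5, a stem cell marker in several epithelia, had 5, 13, 1 and 8 counts, and Frzb, a secreted WNT-binding protein of cartilage, had 4, 16, 2 and 6. Log2 ratios in the untreated pair carry a prior count of 2, which draws them toward 0, and their 95% counting intervals do not. Frzb had 1.64 (0.45 to 4.12) and Wnt2 had −1.29 (−3.40 to −0.08). Wnt4 and Axin2, the remaining genes of this class, are described with OB induction. Of these genes Wnt3a lies 16175 bases from Wnt9a on chromosome 11, in opposite orientation, and Wnt6 lies 6193 bases from Wnt10a on chromosome 1. Wnt9a thus held 80 to 141 counts beside a neighbour at 0, while Wnt6 and Wnt10a were both near the floor.

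Promoter sequences of the genes that stand out below were taken from RefSeq (GRCm38.p6), as windows of 250 bases before and 50 bases after a transcription start. Because DNMT1 copies methylation at CG dinucleotides, these are printed in capitals, 5′ to 3′ on the gene's strand. The set holds the gene with the lowest log2 fold change in OB against control (Lgr6), the inhibitor whose siRNA effect differed most between states (Sfrp2), the feedback genes with the largest OB effects (Nkd1, Nkd2, Axin2), and the ligand with no counts that has the most CG dinucleotides of those at 0 (Wnt3a).
Lgr6: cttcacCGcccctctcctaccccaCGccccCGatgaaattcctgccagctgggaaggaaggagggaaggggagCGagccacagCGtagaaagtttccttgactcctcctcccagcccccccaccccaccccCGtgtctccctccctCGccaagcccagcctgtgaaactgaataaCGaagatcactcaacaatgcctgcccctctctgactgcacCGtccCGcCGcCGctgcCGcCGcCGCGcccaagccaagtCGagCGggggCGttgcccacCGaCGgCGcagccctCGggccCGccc
Sfrp2: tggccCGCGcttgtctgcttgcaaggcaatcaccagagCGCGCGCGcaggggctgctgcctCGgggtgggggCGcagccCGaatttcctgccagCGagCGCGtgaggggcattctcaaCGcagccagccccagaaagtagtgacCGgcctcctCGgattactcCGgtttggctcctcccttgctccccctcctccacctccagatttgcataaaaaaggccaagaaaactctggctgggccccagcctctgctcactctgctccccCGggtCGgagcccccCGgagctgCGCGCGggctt
Nkd1: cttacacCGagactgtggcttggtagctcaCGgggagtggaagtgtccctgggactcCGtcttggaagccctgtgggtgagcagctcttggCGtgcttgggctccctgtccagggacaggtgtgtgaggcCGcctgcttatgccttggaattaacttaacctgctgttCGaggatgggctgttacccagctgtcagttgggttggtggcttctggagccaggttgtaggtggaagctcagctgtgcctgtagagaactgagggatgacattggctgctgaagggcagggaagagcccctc
Nkd2: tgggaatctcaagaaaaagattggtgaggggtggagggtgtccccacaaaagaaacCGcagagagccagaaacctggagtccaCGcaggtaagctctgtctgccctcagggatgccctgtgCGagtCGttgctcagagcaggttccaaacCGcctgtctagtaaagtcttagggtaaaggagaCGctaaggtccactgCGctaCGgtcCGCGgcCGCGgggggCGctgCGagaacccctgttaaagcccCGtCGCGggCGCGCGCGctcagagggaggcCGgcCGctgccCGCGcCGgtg
Axin2: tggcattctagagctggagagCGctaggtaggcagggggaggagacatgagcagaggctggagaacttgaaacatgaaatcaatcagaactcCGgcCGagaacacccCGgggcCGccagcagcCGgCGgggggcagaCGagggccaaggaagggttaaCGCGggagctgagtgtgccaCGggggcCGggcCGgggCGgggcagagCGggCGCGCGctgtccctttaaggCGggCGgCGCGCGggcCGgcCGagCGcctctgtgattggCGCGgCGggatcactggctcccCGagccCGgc
Wnt3a: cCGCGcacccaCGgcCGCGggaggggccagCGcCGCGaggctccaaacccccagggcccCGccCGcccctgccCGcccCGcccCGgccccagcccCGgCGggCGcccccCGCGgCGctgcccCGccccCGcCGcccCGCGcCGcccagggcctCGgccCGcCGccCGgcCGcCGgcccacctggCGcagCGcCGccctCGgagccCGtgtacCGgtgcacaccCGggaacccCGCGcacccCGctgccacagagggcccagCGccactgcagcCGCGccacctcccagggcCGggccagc
The windows lie at chr1:135105227-135105526 (Lgr6, minus strand), chr3:83766071-83766370 (Sfrp2, plus), chr8:88527383-88527682 (Nkd1, plus), chr13:73847582-73847881 (Nkd2, minus), chr11:108920099-108920398 (Axin2, plus) and chr11:59290702-59291001 (Wnt3a, minus). They hold 24, 22, 6, 26, 31 and 45 CG dinucleotides in that order. The Nkd1 window belongs to a start inside the gene span of the count table, which begins further upstream at 88521354.

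Of the 54 genes 35 had at least 1 such window, and their 45 windows had a median of 24 CG dinucleotides (quartiles 10 and 34) against 7 (3 and 20) over all 32851 RefSeq windows. The letters CTTTGAT, the core of the TCF/LEF site, were searched on both strands and stood in 2 of the 45 windows (4.44%) and in 3.73% of all windows. These were a window of Wnt11, at position −51 from the start, and an inner window of Wnt5b, at −71. AGAACA, part of the glucocorticoid receptor site, stood in 8 windows (17.8%) against 19.0% of all, namely of Axin2 at position −152, Dkk2 at −241, Fzd4 at 16, Lef1 at −10 and, in another window, −125, Rnf43 at −240, Tcf7l2 at −11 and Wnt5b at −234. These 2 sets of letters do not contain each other. A match describes the letters and not a bound site.

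Gene expression was then compared between induced and uninduced cells, to see which WNT genes differed after 3 days of OB induction. No uninduced library is recorded as kept in culture for those 3 days. Added time in culture and the induction mix therefore cannot be told apart, here or in the additive fit. Genes at or beyond 1 in either direction on the log2 scale (TMM-scaled CPM, prior count of 2) were called higher or lower, and were past the fold. The 95% intervals are exact, leave out the prior count and cover counting error only. At few counts the prior draws a log2 fold change or log2 ratio toward 0. With control siRNA, 10 of the 36 filtered WNT genes were higher in OB and 2 were lower, beside 10.6% and 7.10% of all 13233 tested genes (17.7% in either direction). Their median was 0.43 against 0.01 over all tested genes. With DNMT1 siRNA, 4 were higher and 3 lower in siDNMT1_OB than in siDNMT1, beside 6.83% and 2.71% (9.54% in either direction), and the median was 0.19 against 0.00. The 10 genes higher with control siRNA were Wnt5b, Fzd4, Lrp5, Sfrp1, Sfrp2, Dkk2, Notum, Nkd1, Nkd2 and Tcf7l2, and the 2 lower were Lgr6 and Lef1. Without Nkd2 and Lgr6, which passed the filter only through the state in which they were high, 9 were higher and 1 lower. With DNMT1 siRNA the higher genes were Lrp5, Dkk2, Nkd1 and Nkd2, and the lower ones Lgr6, Lef1 and Rspo3 (3 higher and 2 lower without Nkd2 and Lgr6). Gene positions below are those of the table (GRCm38).

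Secreted inhibitors and Kremen1 are taken first. The length-scaled levels of all 11 summed to 20.8 (control), 21.8 (siDNMT1), 47.4 (OB) and 29.1 (siDNMT1_OB) CPM per kb. In OB against control all 6 that passed the filter had positive values, beside 50.7% of all tested genes, and 4 were past the fold as higher, beside 10.6%. Sfrp2 (chromosome 3, 83766321 to 83774316, plus strand), a secreted WNT-binding protein, had 112 (control), 227 (siDNMT1), 546 (OB) and 217 (siDNMT1_OB) counts. Its log2 fold change was 2.53 (2.25 to 2.85) with control siRNA but −0.13 (−0.40 to 0.15) with DNMT1 siRNA, so that the high library was OB alone. Sfrp1 (chromosome 8, 23411502 to 23449632) had 696, 750, 1733 and 1506 counts, with 1.58 (1.45 to 1.71) and 0.94 (0.82 to 1.07). Dkk2 (chromosome 3, 132085292 to 132180304), a ligand of LRP5 and LRP6 that can block WNT, had 73, 44, 178 and 102 counts, giving 1.52 (1.15 to 1.96) and 1.12 (0.63 to 1.69). Notum (chromosome 11, 120653788 to 120661175), the enzyme that strips the lipid from WNT proteins, had 86, 61, 180 and 83 counts, giving 1.31 (0.95 to 1.72) and 0.37 (−0.11 to 0.88). As with Sfrp2, its highest library was OB. Antisense genes overlap 29.4% of the exon length of Notum (Notumos, 2 to 12 counts) and 16.1% of that of Sfrp2 (Gm26771, 0 to 3 counts), and the use of strand in counting was not stated. Kremen1, a DKK receptor, had 0.36 and −0.02, and Dkk3 had 0.01 and 0.72.

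Of the feedback genes inside the cell, Nkd1 and Nkd2 were higher after induction under both siRNAs. Nkd1 (chromosome 8, 88521354 to 88594884), which encodes a Dishevelled-binding antagonist, had 57 (control), 48 (siDNMT1), 198 (OB) and 281 (siDNMT1_OB) counts. Both induced libraries were above both uninduced ones, with log2 fold changes of 2.02 (1.63 to 2.51) with control and 2.44 (2.04 to 2.96) with DNMT1 siRNA. Its paralog Nkd2 (chromosome 13, 73818534 to 73847631) had 8, 15, 28 and 73 counts, giving 1.82 (0.90 to 3.41) and 2.08 (1.41 to 3.13). Nkd2 passed the filter through its induced libraries, since both uninduced ones held under 1 CPM. Axin2 (ENSMUSG00000000142, chromosome 11, 108920349 to 108950783), the scaffold gene most used as a readout of canonical signalling, was under the filter with 7, 7, 29 and 47 counts. Its log2 ratios were 2.02 (1.09 to 3.75) and 2.38 (1.53 to 4.08), and both induced libraries were above both uninduced ones. Axin1, its constitutive relative, had 1716, 1617, 1036 and 1324 counts, with −0.47 (−0.58 to −0.35) and −0.35 (−0.46 to −0.25). Znrf3, the feedback gene for a ubiquitin ligase, had 367, 332, 220 and 326 counts, with −0.47 (−0.72 to −0.23) and −0.09 (−0.31 to 0.14). Ctnnb1 had 12918, 14860, 14701 and 23032 counts, with 0.45 (0.41 to 0.48) and 0.57 (0.54 to 0.60). The gene Ulk4 overlaps 14.6% of the exon length of Ctnnb1 on the other strand, at 113 to 252 counts.

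TCF/LEF genes differed in direction. Lef1 (chromosome 3, 131110471 to 131224356), itself a canonical target, had 179 (control), 163 (siDNMT1), 56 (OB) and 45 (siDNMT1_OB) counts. Induction gave −1.39 (−1.87 to −0.97) and −1.87 (−2.43 to −1.44), and both induced libraries were below both uninduced ones. An antisense gene, Gm43352, overlaps 13.7% of the exon length of Lef1, at 3 to 11 counts. Tcf7l2 (chromosome 19, 55741810 to 55933654), which encodes the factor also called TCF4, had 959, 1318, 2090 and 2699 counts, giving 1.38 (1.28 to 1.50) and 0.97 (0.88 to 1.07). Tcf7l1, best known as a repressor, had 816, 1152, 1334 and 1563 counts, with 0.97 (0.84 to 1.10) and 0.38 (0.27 to 0.49), and Tcf7 had 81, 70, 67 and 41 counts.

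Among the receptors Lgr6 was furthest from 0. Lgr6 (ENSMUSG00000042793, chromosome 1, 134983301 to 135105276, minus strand), an R-spondin receptor, had 219 (control), 76 (siDNMT1), 5 (OB) and 22 (siDNMT1_OB) counts. The log2 fold change was −4.77 (−6.83 to −3.95) with control siRNA and −1.76 (−2.61 to −1.15) with DNMT1 siRNA. Lgr6 passed the filter through its uninduced libraries, and both induced ones held under 1 CPM. Rspo3, an R-spondin, had 389, 808, 289 and 402 counts, with −0.17 (−0.39 to 0.06) and −1.07 (−1.25 to −0.90), so siDNMT1 was its one high library. Lgr4 had 11960, 11819, 7951 and 8002 counts, with −0.33 (−0.37 to −0.29) and −0.63 (−0.67 to −0.58). The co-receptor gene Lrp5 (chromosome 19, 3584828 to 3686564) had 1167, 1576, 3006 and 3512 counts, giving 1.63 (1.53 to 1.73) and 1.09 (1.01 to 1.18), whereas Lrp6 had 0.53 (0.47 to 0.59) and −0.05 (−0.11 to 0.01). Both induced libraries were therefore above both uninduced ones for Lrp5. Fzd4 (chromosome 7, 89404355 to 89413134) had 530, 1037, 1120 and 1278 counts, with 1.34 (1.19 to 1.49) and 0.24 (0.12 to 0.36), so control was its only low library. Ror1, a WNT5A receptor, fell just short of the threshold with 1.00 (0.85 to 1.15; 0.998 before rounding) and had 0.29 (0.15 to 0.43) with DNMT1 siRNA, while Ror2 had −0.73 (−0.98 to −0.48) and −0.29 (−0.52 to −0.06).

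Of the ligands, Wnt5b (chromosome 6, 119432531 to 119544347) had 112 (control), 142 (siDNMT1), 372 (OB) and 292 (siDNMT1_OB) counts, giving 1.97 (1.69 to 2.31) with control siRNA and 0.97 (0.68 to 1.28) with DNMT1 siRNA. Wnt5a had 949, 1194, 1335 and 1829 counts, with 0.75 (0.63 to 0.88) and 0.55 (0.45 to 0.66). Wnt4, under the filter with 1, 4, 13 and 26 counts, had a 95% interval of 1.23 to 9.37 for its log2 ratio with control siRNA, where control was under the floor, and a log2 ratio of 2.16 (1.11 to 4.62) with DNMT1 siRNA. Wnt9a had 0.37 (0.01 to 0.74) and 0.74 (0.35 to 1.17), and Wnt10b had 0.80 (0.21 to 1.48) and 0.38 (−0.36 to 1.19). Of the 4 filtered ligands 1, Wnt5b, was higher with control siRNA, beside 10.6% of all tested genes. With DNMT1 siRNA 0 of the 4 were higher, beside 6.83%, and Wnt5b was just under the threshold. With 4 genes, nothing is read from these counts.

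**Figure D2:**
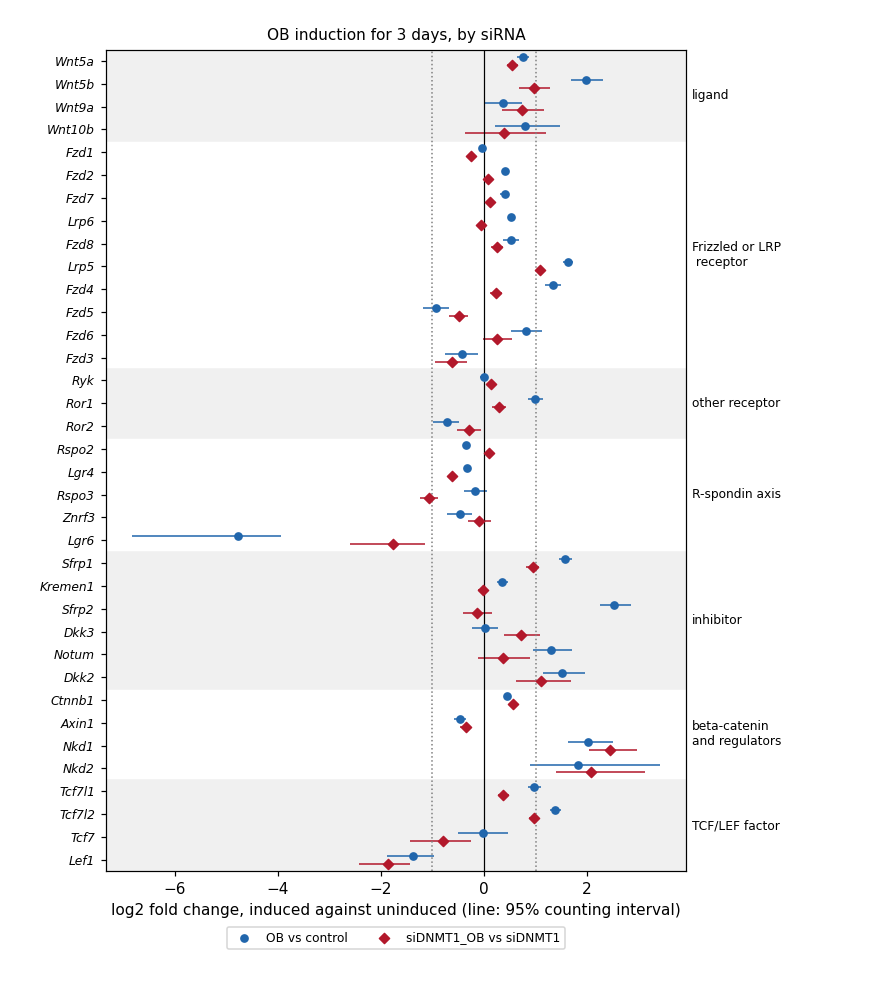
Log2 fold change of 3 days of OB induction for the 36 filtered WNT genes, as OB against control (circles) and as siDNMT1_OB against siDNMT1 (diamonds), each from 1 library per group. Lines are exact 95% counting intervals and dotted lines mark the threshold of 1. Lgr6 lies furthest left under control siRNA (−4.77), and Nkd1 and Nkd2 lie beyond 1 under both siRNAs.

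The design allows 1 test of OB induction across libraries, in which the 2 induced libraries are set against the 2 uninduced ones with siRNA as a further term. This leaves 1 residual degree of freedom, and any true difference in the OB effect between the siRNAs counts as noise. Nothing states that the libraries came from separate cultures beyond their treatment, and no group has a repeated library. The error behind the p-values is the departure of these libraries from additive effects, pooled in part over all tested genes. It is not a spread among repeated cultures. By the edgeR quasi-likelihood test with Benjamini-Hochberg adjustment over all tested genes, 12.0% of genes passed as higher and 9.09% as lower at an adjusted p under 0.05. Of the 36 WNT genes 9 passed as higher and 2 as lower, and 21 had an unadjusted p under 0.05, beside 5027 of all 13233 tested genes. Those that rose were Nkd1 (log2 fold change 2.27, SE 0.24, adjusted p = 0.00922), Lrp5 (1.36, SE 0.17, adjusted p = 0.0115), Tcf7l2 (1.18, SE 0.15, adjusted p = 0.0121), Sfrp1 (1.26, SE 0.19, adjusted p = 0.0164), Nkd2, Dkk2, Wnt5b, Wnt5a and Ctnnb1 (adjusted p = 0.0205 to 0.0348). Lef1 (−1.66, SE 0.26, adjusted p = 0.0174) and Lgr6 (−3.20, SE 0.73, adjusted p = 0.0365) fell, each being lower in 2 of 2 induced libraries. Nkd2 and Lgr6 passed the filter only through the libraries in which they were high, so that their p-values support nothing by themselves, and without them 8 WNT genes passed as higher and 1 as lower. Sfrp2 (adjusted p = 0.232), Notum (adjusted p = 0.103) and Fzd4 (adjusted p = 0.103) missed the threshold. The DESeq2 Wald test passed 11 WNT genes as higher and 2 as lower, beside 10.2% and 8.22% of all tested genes, with Tcf7l1 (adjusted p = 0.0335) and Fzd4 (adjusted p = 0.0348) added to those above. Without the filter, Sfrp2, Notum and Fzd4 passed by edgeR's quasi-likelihood test (adjusted p = 0.00673, 0.0189 and 0.00235). Their counts were the same in both fits. For Sfrp2 the log2 fold change was 1.20 in both, and its SE was 0.64 with the filter and 0.32 without it. With DNMT1 siRNA alone Sfrp2 had −0.13 (−0.40 to 0.15).

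The next comparison asked which WNT genes differed with DNMT1 siRNA in uninduced cells. Of the 36 genes, 3 were higher and 2 lower in siDNMT1 than in control, beside 1.97% and 1.37% of all tested genes (3.34% in either direction), and the median was 0.24 against −0.00 over all tested genes. Without Nkd2 and Lgr6, 3 were higher and 1 was lower. All 10 Frizzled and LRP genes had positive values here, with a median of 0.39, beside 49.7% of all tested genes above 0. Fzd4 was the one past the fold, with 530 counts in control and 1037 in siDNMT1, a log2 fold change of 1.05 (0.90 to 1.20). Fzd8 followed with 616 and 958 counts and 0.72 (0.57 to 0.87). Fzd3 was the lowest of the 10, with 0.03 (−0.24 to 0.31), which was not distinguishable from no difference at this depth.

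The R-spondin axis held genes on both sides. Rspo3 (chromosome 10, 29452416 to 29535867), a secreted R-spondin, had 389 counts in control and 808 in siDNMT1, a log2 fold change of 1.13 (0.96 to 1.32). Rspo2 (chromosome 15, 43020794 to 43170826) had 8274 and 11756 counts, with 0.59 (0.55 to 0.63). Lgr6 was lower, with 219 and 76 counts and −1.42 (−1.84 to −1.06), whereas Lgr4 had 0.07 (0.03 to 0.10). Of the inhibitors, Sfrp2 was higher (112 and 227 counts; 1.09, 0.77 to 1.44) and Dkk3 (chromosome 7, 112116017 to 112159057), a divergent DKK family member, was lower (292 and 109 counts; −1.32, −1.67 to −1.02). Ctnnb1 had 0.28 (0.25 to 0.32), and Tcf7l1 and Tcf7l2 had 0.58 and 0.54. The feedback gene Nkd1 had −0.16 (−0.75 to 0.41) and Axin2 had 7 counts in each library, so no difference was detectable for either at this depth.

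In induced cells the library labelled siDNMT1_OB was compared with OB, with the limit on Dnmt1 given above. Of the 36 genes 3 were higher and 3 lower, beside 2.36% and 1.37% of all tested genes (3.73% in either direction), and the median was −0.07 against 0.01. The higher genes were Rspo2, Lgr6 and Nkd2, and without Lgr6 and Nkd2, which rest on few counts, 1 was higher and 3 lower. Rspo2 had 5410 counts in OB and 13186 in siDNMT1_OB, a log2 fold change of 1.04 (1.00 to 1.09). Lgr6 had 5 and 22 counts, giving 1.59 (0.46 to 3.65), and Nkd2 had 28 and 73, giving 1.09 (0.49 to 1.82). Of the other R-spondin axis genes, Rspo3 had 0.23 (0.01 to 0.46), Znrf3 0.32 (0.07 to 0.58) and Lgr4 −0.23 (−0.28 to −0.19). All 3 lower genes were of the role of secreted inhibitors and Kremen1. Of the antagonists in other roles, Nkd1 had 0.26 (−0.01 to 0.53) and Axin1 0.11 (−0.01 to 0.23), beside Nkd2 and Znrf3 above. Sfrp2 (546 and 217 counts) had −1.56 (−1.81 to −1.34), Notum (180 and 83) −1.34 (−1.75 to −0.98) and Dkk2 (178 and 102) −1.03 (−1.41 to −0.69). The other 3 inhibitors that passed the filter also had negative values, with −0.62 (−0.90 to −0.34) for Dkk3, −0.44 (−0.55 to −0.34) for Sfrp1 and −0.31 (−0.41 to −0.21) for Kremen1. Over all tested genes 52.2% had positive values. This comparison and that of OB with control share the OB library. Of the 10 Frizzled and LRP genes 3 had positive and 7 negative values here, with a median of −0.05, Lrp6 being at −0.23 (−0.29 to −0.17) and Fzd5 at 0.90 (0.65 to 1.17). Outside these roles, Ctnnb1 had 0.40 (0.38 to 0.43) and Tcf7 −0.92 (−1.55 to −0.37).

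**Figure D3:**
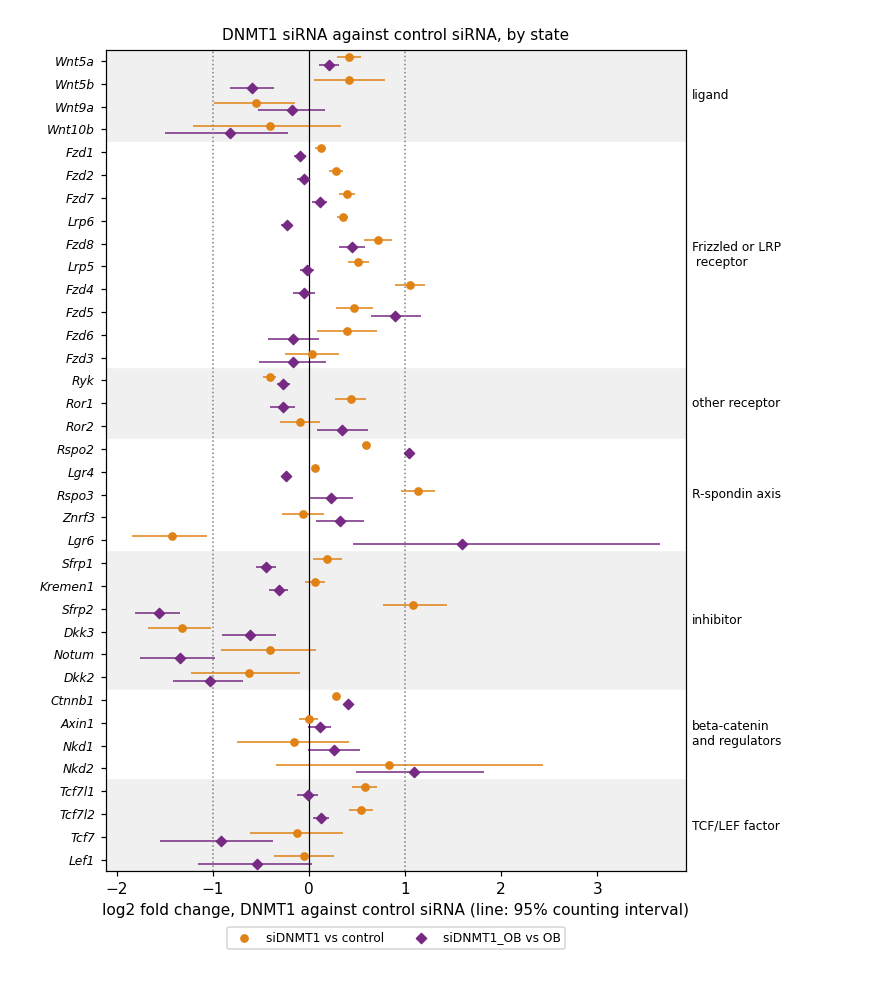
Log2 fold change of DNMT1 siRNA against control siRNA for the 36 filtered WNT genes, in uninduced cells (circles) and in OB-induced cells (diamonds), each from 1 library per group. Lines are exact 95% counting intervals and dotted lines mark the threshold of 1. The 6 diamonds of the role of secreted inhibitors and Kremen1 all lie left of 0, and Sfrp2 and Lgr6 have their circle and diamond on opposite sides of 0.

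Over both states, the DNMT1 siRNA term of the additive fit called 0 genes (0% of those tested) by edgeR's quasi-likelihood test, with 1148 genes at an unadjusted p under 0.05, while the DESeq2 Wald test called 135 (1.02%). Of the 36 WNT genes edgeR called 0 and had 10 at an unadjusted p under 0.05. DESeq2 called 1, Rspo2 (log2 fold change 0.81, adjusted p = 0.0135), whose value was above 0 in 2 of 2 states (0.59 and 1.04). By edgeR the adjusted p of Rspo2 was 0.249 (log2 fold change 0.82, SE 0.15), and that of Dkk3 was 0.352 (−0.97, SE 0.24).

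The siRNA effects of the 2 states were also set side by side, gene by gene. A difference of at least 1 between them was found for 4 of the 36 WNT genes, beside 6.23% of all tested genes, 1 with the higher value in OB (Lgr6, beside 3.27%) and 3 with the lower (beside 2.95%). Without Lgr6, whose induced libraries held under 1 CPM, these were 0 and 3. Effects of opposite sign, at least 1 apart and each with an interval that leaves out 0, were found for 3, Lgr6, Sfrp2 and Wnt5b, beside 2.27% of all tested genes, and for 2 without Lgr6. With 1 library per group these differences have no test, and the error given is a counting error. For Lgr6 the effect in OB lay 3.01 (counting SE 0.65) above that in untreated cells, going from −1.42 to 1.59. For Sfrp2 the difference was −2.65 (counting SE 0.20), going from 1.09 to −1.56. Fzd4, at −1.10 (SE 0.10), went from 1.05 to −0.05, and Wnt5b, at −1.01 (SE 0.21), went from 0.42 to −0.59. Read by library, Lgr6 was highest in control and lowest in OB, while Sfrp2 was highest in OB and lowest in control. The effect on Rspo2 was positive in each state, 0.59 and 1.04.

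**Figure D4:**
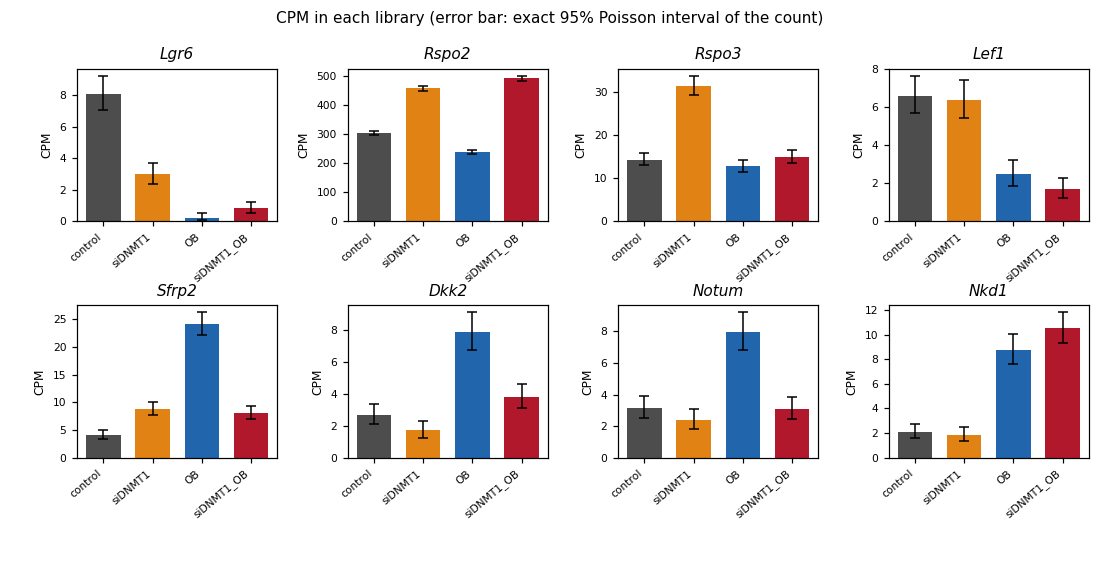
CPM of 8 WNT genes in the 4 libraries, as bars from 0 with exact 95% Poisson intervals of the count, 1 library per bar. Sfrp2, Dkk2 and Notum are highest in OB, Nkd1 is high in both induced libraries, Lef1 and Lgr6 are low in both, and Rspo2 is higher with DNMT1 siRNA in each state.

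A wider list of 81 other WNT genes, covering secretion, further receptors, cytoplasmic and nuclear parts and commonly listed targets, was counted in the same way, and 56 of them passed the filter. In OB against control 8 were higher and 5 lower, beside the 10.6% and 7.10% of all tested genes given above, with a median of 0.10. In siDNMT1_OB against siDNMT1 2 were higher and 2 lower, beside 6.83% and 2.71%. Dact1, which encodes a Dishevelled-binding protein, had log2 fold changes of 2.47 (2.10 to 2.94) and 1.24 (0.93 to 1.59), and the receptor gene Fzd9 had 2.22 (1.89 to 2.64) and 1.74 (1.48 to 2.04). Of the 11 filtered receptors and inhibitors on this list, 3 were higher and 1 was lower in OB against control. The lower one was Apcdd1, at −1.67 (−2.11 to −1.29), which had 0.62 (0.18 to 1.09) in siDNMT1_OB against OB. Of the 13 filtered genes on the list of targets, 4 were lower and 1 was higher in OB. Fosl1, an AP-1 component, had 1443 (control), 744 (siDNMT1), 180 (OB) and 354 (siDNMT1_OB) counts, giving −2.73 (−2.97 to −2.52) and −1.13 (−1.32 to −0.95). Tnfrsf11b, which encodes the osteoclast inhibitor osteoprotegerin, had −1.45 (−1.53 to −1.38) and −1.46 (−1.52 to −1.40). Fosl1 and Tnfrsf11b thus lay on the other side of 0 from Nkd1, Nkd2 and Axin2. With DNMT1 siRNA in uninduced cells, 2 of the 56 were higher and 0 lower, beside 1.97% and 1.37% of all tested genes, namely Prickle1 (1.31, 0.67 to 2.16), a planar polarity gene, and Bambi (1.17, 0.71 to 1.72), a decoy receptor of the TGF-β family, with the NOTCH ligand gene Jag1 next at 0.96 (0.87 to 1.06). Prickle1 held 0.848 CPM in control and passed the filter through the libraries in which it was high, so that without it Bambi alone was higher. Prickle1 is also counted among the 8 genes higher in OB against control, with 1.87 (1.28 to 2.71). In induced cells 0 were past the fold, beside 3.73%, and the furthest from 0 were Ccnd1 (0.92, 0.87 to 0.97), which encodes cyclin D1, Gja1 (0.90, 0.68 to 1.13), which encodes connexin 43, and Ptk7 (0.77, 0.59 to 0.95), a planar polarity receptor.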

How the data were processed

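The authors deposited 1 table of raw counts per gene for the 4 libraries, not normalized. They had read poly(A) RNA from both ends as TruSeq libraries, and used Trimmomatic for trimming, HISAT2 for alignment and featureCounts for counting. The submitters' processing notes name mm10; versions, use of strand and reads with several positions are not given in the sources used here. Of the 54 genes, 52 had the same position in GENCODE M21 (GRCm38). From the counts, the filter (mean of at least 1 CPM by total counts) kept 13233 genes, on which TMM factors (0.991 to 1.01) were computed in edgeR 4.0.16 (R 4.3.3). Fold changes used a prior count of 2, the study's threshold of 1 on the log2 scale, and exact 95% Clopper-Pearson intervals of the counts of both libraries. Molecular identifiers were not used, so intervals and the floor of 3 counts cover counting error only. The additive fits used edgeR's quasi-likelihood test, with DESeq2 1.42.0 as an alternative. The edgeR fit was also tested on simulated data, and no call given here rests on that test. The members and lists were chosen with earlier results of these data known. The genes named are Dnmt1, all members past the threshold, the member with the highest mean level in each role, and the members under the filter. From the wider list the 3 genes furthest from 0 in each comparison are named. Members named beyond these, and Apcdd1, were chosen after their values were seen. Alternatives were other scalings, filters and prior counts, and an interval that leaves out 0.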

Additional observations from a re-analysis of the deposited data

Results flagged for a closer look

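Among the 36 filtered WNT genes, 3 had DNMT1 siRNA effects of opposite sign in uninduced and induced cells, with both 95% counting intervals clear of 0 and at least 1 between them on the log2 scale, beside 2.27% of all 13233 tested genes. Without Lgr6, which passed the filter only through its uninduced libraries, there were 2. The effect in OB minus the effect in untreated cells was 3.01 for Lgr6, −2.65 for Sfrp2 and −1.01 for Wnt5b. With 1 library per group the difference was not tested across cultures. For Lgr6 it rests on 5 counts in OB and 22 in siDNMT1_OB. For Sfrp2 the counts were 112, 227, 546 and 217, and for Wnt5b 112, 142, 372 and 292, in control, siDNMT1, OB and siDNMT1_OB. Dnmt1 was not lower in siDNMT1_OB than in OB (93.1 and 85.4 CPM), and its part in these differences was not tested. With DESeq2's size factors Wnt5b was just under a difference of 1.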

How the results depend on the processing

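Libraries could not be paired by replicate number, which the labels do not give, and the additive fit pairs them by siRNA only. With 1 library per group no library could be left out of a comparison. Of 576 values of single WNT genes under other scalings and a prior count of 0.5, 0 changed the sign of a called gene and 2 left their counting interval. Under upper quartile and total count scaling Ror1 (1.05 and 1.03) and Tcf7l1 (1.02 and 1.00) joined the higher genes of OB against control, which made 14 past the fold in place of 12. Requiring a counting interval without 0 left the WNT counts as they were. The filter moved counts most, by changing which genes were tested. Without it, genes past the fold numbered 2598 (siDNMT1 against control; 9 WNT genes), 3273 (siDNMT1_OB against OB; 11), 6142 (OB against control; 17, the added ones Wnt4, Axin2, Wnt7b, Wnt16 and Lgr5) and 3866 (siDNMT1_OB against siDNMT1; 12). The share of higher genes in siDNMT1_OB against OB went from 63.3% to 42.2%. With a mean of at least 5 CPM, genes past the fold numbered 201, 257 (2 WNT genes), 1555 (7) and 738 (3) in the same order. Lgr6, Lef1, Dkk2, Notum and Nkd2 were then no longer tested. Past the fold this left Sfrp1 and Sfrp2 of the inhibitors in OB against control. In siDNMT1_OB against OB it left Sfrp2 alone of the lower genes. For the looser and the stricter filter these WNT counts have no share of all tested genes beside them, and nothing is read from them. Without a filter the additive fit tested 27380 genes, 50 of them WNT genes. It passed 4433 genes and 21 WNT genes for OB induction, and 433 and 2 (Rspo2 and Dkk3) for DNMT1 siRNA. For DNMT1 siRNA, upper quartile scaling passed 28 genes and DESeq2 135 genes and 1 WNT gene, against 0 in edgeR; the cause was not tested. Genes at a few counts, such as Wnt4, Frzb and Lgr5, are limited by depth.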
